A study of Mus musculus with 4 samples.

Results

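Immunoglobulin chain transcripts were followed across 4 samples of mouse CD4+ T cells, with 1 one-colour Agilent array per sample. The chain probes were the non-control probes whose file name is that of an immunoglobulin heavy, kappa, lambda or joining chain and whose description holds the word immunoglobulin. This rule gave 25 of the 41174 non-control probes, on 34 spots, and the level of these probes on fresh against cultured arrays also entered their choice. They carried 11 of the 27745 gene names on the array. By name and description 7 were lambda chain probes, 6 were kappa, 5 were heavy-chain variable, 4 were heavy-chain constant and 2 were joining chain (J chain) probes. The rule also took in 1 probe of Ighmbp2, a nucleic acid-binding protein and no immunoglobulin chain. A further 74 probes under other names were described as an immunoglobulin heavy, kappa or lambda chain, and they are given beside the 25 as other chain probes.

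The library labelled si-Eos came from natural regulatory T cells (Treg, CD4+CD25+) transduced with a lentivirus for a short hairpin RNA against Eos. The library labelled si-RL came from Treg given a hairpin against Renilla luciferase, the study's control. Both hairpin lentiviruses carried a GFP reporter, and both cultures spent 60 h with human IL-2 before GFP+ cells were sorted. The Treg and the naive T cells (CD4+CD25-CD62L-high) were taken fresh and carried no hairpin. All cells came from spleen and lymph nodes of BALB/c mice, and magnetic beads parted CD25+ from CD25- cells before the sort. Number of animals and pooling were not given in the sources used here. Transduction, culture with IL-2 and the GFP sort go together in both hairpin libraries, so their parts in any difference from the fresh cells cannot be told apart. In bulk RNA, fewer cells of a type and less RNA per cell cannot be told apart either.

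Immunoglobulins are made by B cells and, in bulk, by plasma cells, the secreting stage of that lineage. Each consists of heavy chains paired with kappa or lambda light chains. A heavy chain joins a variable region, assembled from gene segments, to a constant region that sets the class, and IgM is the class that naive B cells make. The IgM heavy chain is made in a membrane form and a secreted form that differ in their last exons. The J chain links IgM or IgA monomers into the secreted polymers and is strongly expressed in plasma cells. T cells rearrange T cell receptor genes and are not a known source of these proteins.

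Each group is 1 array, so there is no replicate, and no p-value or SD between samples is given. The error printed after ± is the scanner software's own error carried onto the log2 scale, which covers the measurement of a spot and not the spread between samples. Signals are the scanner's processed values in scanner units. Log2 differences were taken after each array was set to its 75th percentile. A probe counts as measured in a comparison where it was well above background on every array of it. Where only one side was well above background the difference is a bound, written "at least N-fold". Between 64.0% and 68.3% of probes were well above background on an array, and no chain probe was saturated. The knocked-down gene did not follow the labels: of the 3 Ikzf4 (Eos) probes all had more signal in si-Eos than in si-RL, with log2 differences of 1.96, 0.93 and 1.19. Foxp3, the lineage factor of Treg, had a signal of 2644 in the library labelled si-Eos, 110 in that labelled si-RL, 1778 in Treg and 64.4 in naive T cells. The hairpin libraries are therefore called by their labels throughout, and a direction between them is one between 2 labelled libraries.

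The J chain gave the lowest measured differences of the 25 probes. Its promoter is shown because J chain is the only one of the 10 chain names with an entry in the RefSeq promoter table of build GRCm38.p6, at chr5:88527848-88528147 on the minus strand. The 300 bases run 5′ to 3′, and the capitals mark matches to the E-box, CANNTG, a motif bound by basic helix-loop-helix factors.
Jchain promoter: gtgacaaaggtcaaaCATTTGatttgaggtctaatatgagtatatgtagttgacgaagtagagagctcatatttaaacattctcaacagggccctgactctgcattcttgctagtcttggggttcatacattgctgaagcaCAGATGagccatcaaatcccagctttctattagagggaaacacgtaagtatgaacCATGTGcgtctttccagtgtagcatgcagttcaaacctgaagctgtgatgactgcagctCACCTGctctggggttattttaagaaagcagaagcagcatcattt
The window held 4 E-boxes, read on both strands with overlaps allowed, and 74.99% of 27025 genes in the table have at least 1. The octamer ATGCAAAT, the element best known from immunoglobulin promoters, had 0 matches on both strands, against 1.97% of the genes with at least 1. A match is a run of letters only.

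J chain transcript was abundant in both fresh samples and close to the detection floor in both cultures. The J chain probe A_51_P150705 (mm8 chr5:89595625-89595684, minus strand) had a signal of 14.0 in the library labelled si-Eos, 11.8 in that labelled si-RL, against 4477 in Treg and 3788 in naive T cells. Both fresh arrays stood far above both hairpin arrays, which lay next to each other. That is a log2 difference of -8.02 ± 0.29 for si-Eos over Treg, or 260.5-fold lower, and of -7.99 ± 0.33 for si-RL over Treg, or 254-fold lower. The J chain probe A_51_P150710 (mm8 chr5:89595455-89595514, minus strand) had 6.70 in the library labelled si-Eos, which was not well above background, 18.4 in that labelled si-RL, 8827 in Treg and 7008 in naive T cells. It was at least 790-fold lower in si-Eos than in Treg, and 321-fold lower in si-RL than in Treg, at -8.33 ± 0.26. Among the 25494 probes measured for si-RL over Treg the J chain probes ranked first and second from the lowest (ranks 1 and 2). Fresh against cultured levels entered the choice of the probes, so these ranks are a description. Treg and naive T cells differed by -0.13 ± 0.20 and -0.04 ± 0.20, less than the scanner error at this scaling. At the first probe the difference depended on the processing and lay between -0.58 and 0.12 across the settings.

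**Figure D1:**
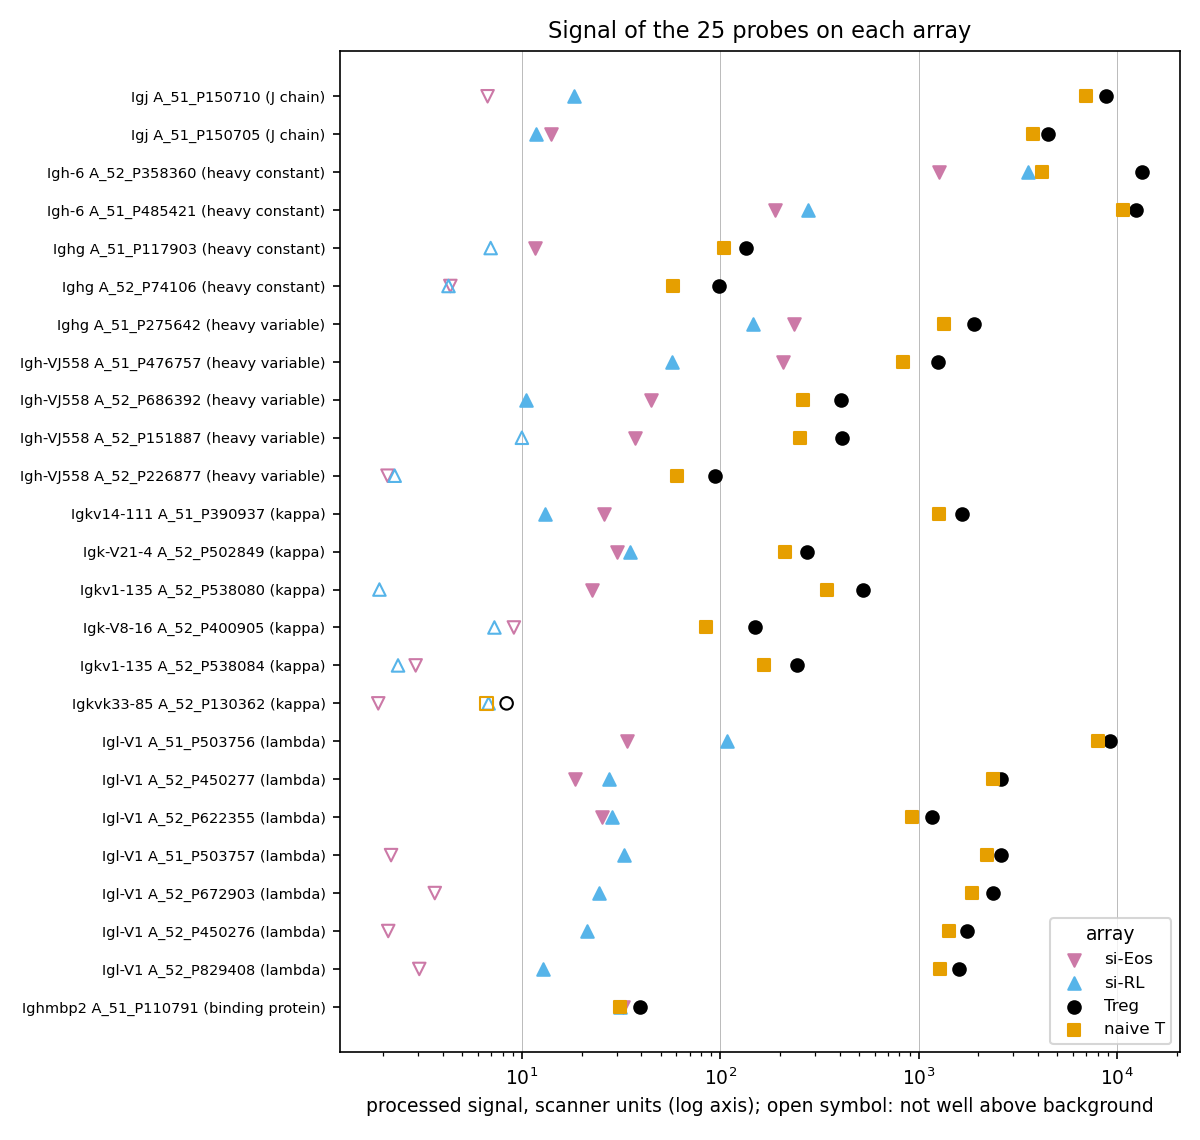
Processed signal (log axis, scanner units) of each of the 25 probes on the si-Eos, si-RL, Treg and naive T arrays. Open symbols are not well above background. For every probe but Ighmbp2 and the undetected Igkvk33-85, the Treg and naive T symbols lie to the right of both hairpin symbols, by little for naive T at the second Igh-6 probe (3554 in si-RL, 4184 in naive T).

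The same contrast over all 25 probes is the one that helped choose them, so its counts are a description. In the library labelled si-Eos, 14 of 15 measured chain probes were at least 2-fold lower than in Treg, where 10.1% of the 26521 measured probes of the array were (8.5% were as much higher), and their median log2 difference was -3.26 against 0.05 over all probes. A further 9 were lower only as a bound of at least 2-fold, as were 17.9% of the probes with 1 side above background. In the library labelled si-RL, 16 of 17 measured probes were at least 2-fold lower than in Treg, where 7.69% of all measured probes were (8.56% were as much higher), with a median of -5.73 against 0.03. Another 7 were lower as a bound, where 21.8% of probes with 1 side above background were. Both comparisons share the Treg array. With both cultures set against both fresh samples, 11 of 12 probes measured on all 4 arrays were at least 2-fold lower, with a median of -4.34, beside 6.50% of all probes. The exception in each count was Ighmbp2, with a signal of 32.4 in the library labelled si-Eos, 31.2 in that labelled si-RL, 39.3 in Treg and 31.3 in naive T cells. Its difference from Treg was 0.01 ± 0.24 in si-Eos and 0.25 ± 0.25 in si-RL. Igkvk33-85, a kappa variable probe, was not well above background on any array. Apart from Ighmbp2 at 0.11, the least lowered for cultured over fresh were the second Igh-6 probe at -1.56 and Igk-V21-4 at -2.64.

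Some features of the 25 probes limit how many separate genes they stand for. The 7 lambda probes carry 1 name, Igl-V1 (now Iglv1), that of a lambda variable segment. Of them 4 overlap or nearly adjoin one another, from position 18998702 to 18998876 of chr16. A_51_P503756 and A_52_P450277 were placed apart from these, from 18975296 to 18975587, and A_51_P503757 was given the span 18976818-18998635. The name may thus not be that of the segment each probe reads, which was not analysed. The 4 Igh-VJ558 probes belong to one large family of heavy-chain variable segments. Variable segments of a family are near copies, so a probe may take up transcript of several, and their values are uncertain as values of single segments. Of the 3 probes named Ighg, 1 is described as the variable segment IGHV5-17 and not as a constant region. The other 2 were described as the IgG heavy chain. The files placed A_52_P74106 115 kb downstream of the first IgM probe. They placed A_51_P117903 510.6 kb upstream of it, on the side of the heavy variable probes. Its place among the constant-region probes rests on its description alone and is uncertain.

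IgM heavy chain, the constant region of the B cell's first antibody class, had 2 probes named Igh-6 (now Ighm) that did not move alike. The first, A_51_P485421 (mm8 chr12:113869227-113869286, minus strand), was printed on 10 spots of each array. It had a signal of 188 in the library labelled si-Eos, 277 in that labelled si-RL, against 12549 in Treg and 10793 in naive T cells. The SD of its spots on the log2 scale was 0.06, 0.10, 0.04 and 0.07 on these arrays. Both hairpin arrays lay far below both fresh ones, at -5.77 ± 0.20 in si-Eos and -4.92 ± 0.20 in si-RL relative to Treg. The second, A_52_P358360 (mm8 chr12:113866458-113866517, minus strand), lies 2769 bases further downstream. Its signal was 1274 in the library labelled si-Eos, 3554 in that labelled si-RL, against 13322 in Treg and 4184 in naive T cells. Here the si-RL and naive T arrays were close, and Treg stood above all others. It was -3.09 ± 0.20 in si-Eos and -1.33 ± 0.20 in si-RL relative to Treg, and 1.30 ± 0.20 in Treg relative to naive T cells.

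Between these positions, 530 bases downstream of the first, lies another probe of the IgM constant segment, A_52_P571419, which was picked after its values were seen. It had a signal of 904 in the library labelled si-Eos, 1934 in that labelled si-RL, against 87059 in Treg and 60935 in naive T cells. It followed the first Igh-6 probe, with -6.30 in si-Eos and -4.91 in si-RL relative to Treg and 0.14 in Treg relative to naive T cells. A probe 4255 bases downstream, also described as IgM heavy chain, changed little, at -0.32 in si-Eos and -0.19 in si-RL relative to Treg, and its signal of 56.8 to 97.0 was low on all arrays. The next, a probe of the IgD constant segment 5353 bases downstream, differed from Treg by -0.86 in si-Eos and by -1.70 in si-RL. Which exon each probe lies in was not analysed here, since no annotation of build mm8 was used.

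**Figure D2:**
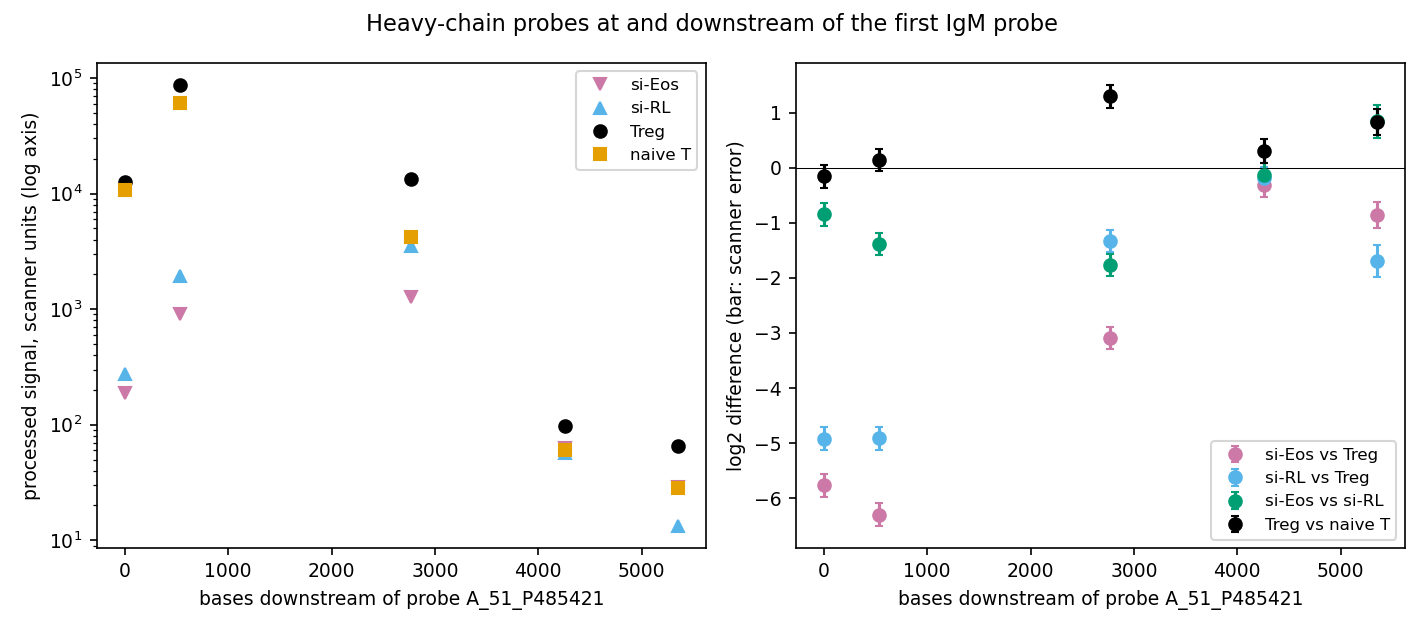
Left, processed signal (log axis, scanner units) of 5 heavy-chain probes against their distance in bases from the first Igh-6 probe. Right, their log2 differences in each comparison, with the scanner error as bars. The probes at 0 and 530 bases lie near -5 to -6 for both hairpin libraries over Treg, while the probe at 2769 bases lies at -3.09 and -1.33 and is the one at 1.30 for Treg over naive T.

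IgG heavy chain probes were dim. The probe A_51_P117903 had a signal of 11.6 in the library labelled si-Eos, 6.95 (not well above background) in that labelled si-RL, against 135 in Treg and 105 in naive T cells. It was -3.26 ± 0.31 in si-Eos relative to Treg, and at least 9.98-fold lower in si-RL than in Treg. The probe A_52_P74106 was not well above background in either hairpin library, against 98.7 in Treg and 57.8 in naive T cells. It was at least 8.83-fold lower in si-Eos and at least 7.27-fold lower in si-RL than in Treg. A probe of the heavy-chain complex with no stated class, A_51_P509679, was picked after its values were seen. It had 159 in the library labelled si-Eos, 9.24 (not well above background) in that labelled si-RL, against 9076 in Treg and 4176 in naive T cells. This probe was 46.5-fold lower in si-Eos than in Treg and at least 657-fold lower in si-RL than in Treg. It lies 162.6 kb downstream of the first IgM probe. The other probes of its name, Igh, were less lowered. A_51_P180159 was 6.15-fold lower in si-Eos and 7.95-fold lower in si-RL than in Treg. For A_51_P187645 these values were 26.1-fold and 82.5-fold, and for A_51_P391836 23.4-fold and 30.6-fold.

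Lambda light chain transcript was plentiful in both fresh samples and nearly gone from si-Eos. The probe A_51_P503756 (mm8 chr16:18975296-18975355, minus strand), had a signal of 34.0 in the library labelled si-Eos, 108 in that labelled si-RL, against 9203 in Treg and 8066 in naive T cells. It was 221-fold lower in si-Eos and 57.1-fold lower in si-RL than in Treg. The probe A_52_P450277 had 18.5 in the library labelled si-Eos, 27.4 in that labelled si-RL, 2597 in Treg and 2378 in naive T cells. The probe A_52_P622355 had 25.2 in the library labelled si-Eos, 28.5 in that labelled si-RL, 1171 in Treg and 929 in naive T cells. On each of these probes the fresh arrays were close to each other and far above both hairpin arrays. All 7 lambda probes were measured in si-RL, with differences from Treg of -6.40 to -4.78. In si-Eos only 3 of the 7 were well above background, at -7.79 to -5.24, and the other 4 were at least 143-fold to at least 232-fold lower than in Treg.

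Kappa chain probes, of the light chain most mouse antibodies use, carried the names of variable segments. Igkv14-111 (A_51_P390937, mm8 chr6:68186355-68186414, plus strand) had a signal of 25.8 in the library labelled si-Eos, 13.1 in that labelled si-RL, against 1658 in Treg and 1270 in naive T cells. It was -5.71 ± 0.23 in si-Eos and -6.40 ± 0.29 in si-RL relative to Treg. Igk-V21-4 (now Igkv3-4) was the least lowered kappa probe, with 30.0 in the library labelled si-Eos, 34.9 in that labelled si-RL, against 274 in Treg and 211 in naive T cells. Of the dimmest kappa probes, Igk-V8-16 was at least 13.4-fold lower in si-Eos and at least 11.0-fold lower in si-RL than in Treg. The probe A_52_P538084 of Igkv1-135 was at least 21.7-fold lower in si-Eos and at least 17.8-fold lower in si-RL.

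Heavy-chain variable probes kept more of their signal in si-Eos than in si-RL. The IGHV5-17 probe, A_51_P275642 (mm8 chr12:114307146-114307205, minus strand), had a signal of 236 in the library labelled si-Eos, 146 in that labelled si-RL, against 1909 in Treg and 1336 in naive T cells. Igh-VJ558 probe A_51_P476757 (mm8 chr12:116400367-116400426, minus strand) had 206 in the library labelled si-Eos, 56.9 in that labelled si-RL, against 1253 in Treg and 838 in naive T cells. Both probes were lowest in si-RL. For Igh-VJ558 this is -2.31 ± 0.20 in si-Eos and -3.88 ± 0.21 in si-RL relative to Treg. The dimmest of its family, A_52_P226877, was not well above background in either hairpin library, and was at least 8.45-fold lower in si-Eos and at least 6.96-fold lower in si-RL than in Treg.

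The si-Eos library against the si-RL library is a contrast the choice of the probes did not use, though earlier results of these arrays were known. Over 12 measured chain probes the median log2 difference was -0.35, against -0.01 over all probes. Of these, 2 were at least 2-fold higher in si-Eos, where 9.81% of all measured probes were, and 2 were at least 2-fold lower, where 11.2% were. The probes at least 2-fold higher were both Igh-VJ558, at 1.57 ± 0.21 (A_51_P476757) and 1.80 ± 0.33 (A_52_P686392). Those at least 2-fold lower were the lambda probe A_51_P503756 at -1.95 ± 0.22 and the second Igh-6 probe at -1.77 ± 0.20. J chain differed by -0.04 ± 0.39 at the probe measured in both libraries, and was at least 2.46-fold lower in si-Eos at the other. The median thus sets together chain classes that lay on opposite sides of 0.

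By class, all 3 measured heavy-chain variable probes were higher in si-Eos than in si-RL, at 0.40 to 1.80, and so were all 7 measured other chain probes of the heavy variable class, with a median of 1.31. Where 1 library was not well above background, 12 of 15 heavy variable bounds of both sets were higher in si-Eos and 2 lower. Over all probes, 2320 of 3582 such bounds were higher in si-Eos and 911 were lower, so most bounds of the array were higher too. Lambda went the other way: the 3 measured probes lay at -1.95 to -0.46 and the other 4 were lower in si-Eos as a bound. The probe of the lambda constant segment IGLC3 among the other chain probes (A_51_P483576, picked after its values were seen) had 16.4 in the library labelled si-Eos, 104 in that labelled si-RL, at -2.95. Both Igh-6 probes were also lower in si-Eos, at -0.85 and -1.77. The 14 measured kappa probes of both sets centred near 0, with a median of 0.13 and a range of -0.87 to 0.97. The heavy variable and lambda signs were the same under 3 other scalings and another background correction, tried after the data were seen. Under that correction the kappa median was -0.20 over 2 members and -0.12 over the 12 measured kappa probes among the other chain probes. Of those 12, 9 were negative and 3 positive, where the main setting had 5 and 7. The arrays cannot show whether these splits by class exceed the spread between cultures, since each library is 1 array.

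**Figure D3:**
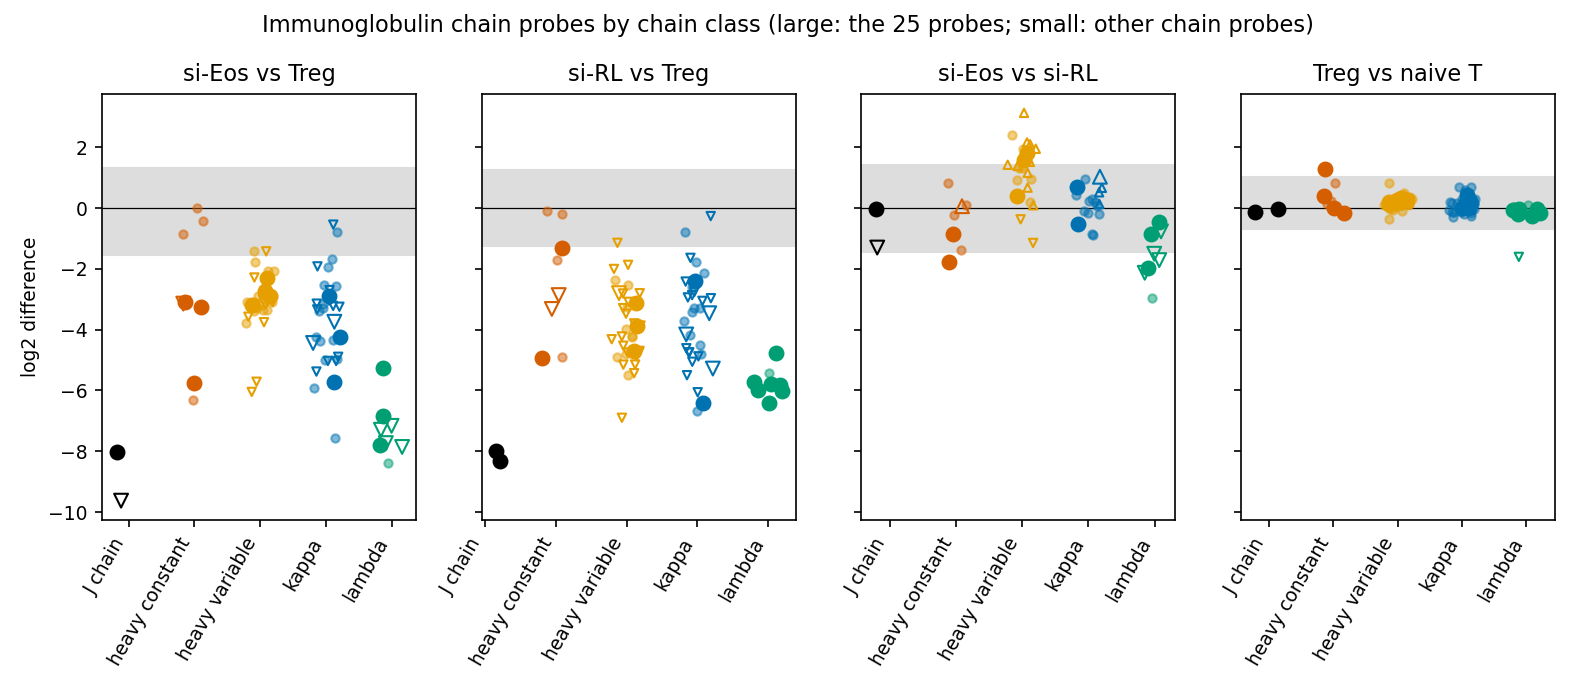
Log2 differences of chain probes by class in 4 comparisons, where large symbols are the chain probes of the rule, small symbols the other chain probes and open triangles bounds. Ighmbp2 and 10 other chain probes with no stated part of the heavy chain are not drawn. The grey band spans the 5th to 95th percentile of all measured probes. The measured J chain symbols lie at -8.02 for si-Eos over Treg and at -7.99 and -8.33 for si-RL over Treg. For si-Eos over si-RL the measured heavy variable probes lie above 0, with 2 of their bounds below it, and the lambda probes lie below 0, and nearly all symbols lie near 0 for Treg over naive T.

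Treg and naive T cells carried similar amounts of these transcripts, again in a contrast the choice of probes did not use. Of 24 measured chain probes, 1 was at least 2-fold higher in Treg, where 5.23% of all measured probes were, and 0 were at least 2-fold lower, where 1.93% were. The 1 was the second Igh-6 probe. The median over the 24 was 0.00, against -0.02 over all probes, and the other 23 lay between -0.25 and 0.44. By class the medians were 0.27 for 5 heavy variable probes, 0.17 for 5 kappa probes and -0.07 for 7 lambda probes, about the size of a single probe's scanner error of 0.20. Of 70 measured other chain probes, 0 passed 2-fold either way, with a median of 0.13.

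The 74 other chain probes, chosen by description alone, were also mostly lower than in Treg. In si-Eos 40 of 46 measured were at least 2-fold lower (10.1% of all probes), with a median of -3.11, and another 23 were lower as a bound of at least 2-fold. In si-RL 27 of 32 were at least 2-fold lower (7.69% of all probes), with a median of -3.56, and another 36 as a bound. The constant-region probes of this set were less uniform: of 4 measured in si-Eos, 1 was at least 2-fold lower, the IgM probe A_52_P571419, and the median was -0.65. In si-RL 2 of 4 were, that probe and the IgD probe A_51_P266248 at -1.70, with a median of -0.95. Apart from the IgM probe, those measured were dim, with signals of 13.3 to 126 across the arrays. The IGLC3 lambda probe was the lowest measured in si-Eos, at -8.38, and had -5.43 in si-RL. For si-Eos over si-RL 5 of 29 were at least 2-fold higher (9.81% of all probes) and 2 at least 2-fold lower (11.2%).

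Markers of B cells moved in part with the chain transcripts. Of 25 B cell surface and lineage genes, 21 were well above background in si-Eos, 17 in si-RL, 21 in Treg and 18 in naive T cells. Their summed level, each signal divided by its array's 75th percentile, was 17.8 in si-Eos, 12.4 in si-RL, 16.8 in Treg and 13.3 in naive T cells. In si-Eos 6 of 18 measured were at least 2-fold lower than in Treg and 2 higher, with a median of -0.16. Of all measured probes 10.1% were lower and 8.5% higher there. In si-RL 7 of 17 were lower and 3 higher, with a median of -0.78, beside 7.69% and 8.56% of all measured probes. Cd79b, a signalling chain of the B cell receptor, had 78.6 in si-Eos and 52.3 in si-RL, against 653 in Treg and 137 in naive T cells. Cd72, a B cell coreceptor, had 143 in si-Eos and 97.6 in si-RL, against 824 in Treg and 476 in naive T cells. Blnk, the adaptor downstream of that receptor, was -3.60 in si-Eos and -2.35 in si-RL relative to Treg. Pou2af1, a coactivator of immunoglobulin genes, was -2.28 in si-Eos and -0.77 in si-RL. Cd24a, a surface glycoprotein, went the other way, at 3.63 in si-Eos and 1.57 in si-RL.

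Other B cell markers moved less. Ms4a1 (CD20) had 152 in si-Eos and 106 in si-RL, against 179 in Treg and 130 in naive T cells. Cd79a, the partner of Cd79b, was -0.14 in si-Eos and 0.70 in si-RL relative to Treg. Both genes moved by less than 2-fold relative to Treg. They were picked after their values were seen, and Cd79b, Cd72 and Blnk moved by more than 2-fold. Bach2 and Cd37, which T cells express too, were 1.15 and -0.18 in si-Eos and 1.23 and -1.15 in si-RL. Pax5 and Ebf1, the B lineage factors, were well above background only in si-Eos. The part of B cells in the chain differences was not tested.

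Plasma cell genes also went both ways. All 26 were well above background in both fresh samples and 25 of the 26 in each hairpin library, and the summed level was 197 in si-Eos, 178 in si-RL, 172 in Treg and 153 in naive T cells. Relative to Treg, 3 of 25 were at least 2-fold lower and 6 higher in si-Eos, with a median of 0.20. In si-RL 9 of 25 were lower and 2 higher, with a median of -0.87. Of all measured probes, 10.1% were lower and 8.5% higher in si-Eos, and 7.69% lower and 8.56% higher in si-RL. The 3 lower in si-Eos and the 2 higher in si-RL were near those shares. Mzb1, a chaperone of IgM assembly, had 24.7 in si-Eos and 36.4 in si-RL, against 338 in Treg and 306 in naive T cells. Derl3, of endoplasmic reticulum protein clearance, had 26.9 in si-Eos and 40.8 in si-RL, against 270 in Treg and 138 in naive T cells. Tnfrsf17 (BCMA), the plasma cell survival receptor, was not well above background in either hairpin library, against 75.6 in Treg and 46.3 in naive T cells. It was at least 6.77-fold lower in si-Eos and at least 5.57-fold lower in si-RL than in Treg. The factors of plasma cell differentiation, which activated T cells also express, were higher in si-Eos: Prdm1 was 1.52, Xbp1 1.58 and Irf4 2.19 relative to Treg, and in si-RL they were -0.92, -0.49 and 0.06. Of the 4 brightest genes of the list, the chaperones Hspa5 and Hsp90b1 were -0.26 and 0.20 in si-Eos and -1.29 and 0.10 in si-RL, Trp53inp1 was 0.81 and 1.46, and Tent5c was -1.21 and -0.89. Their part in the chain differences was not tested.

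Other lists moved less uniformly. Beside their counts, 10.1% of all measured probes were at least 2-fold lower and 8.5% higher in si-Eos relative to Treg. In si-RL these shares were 7.69% and 8.56%. Of 11 genes of B cell antigen presentation, 5 of 11 measured were at least 2-fold lower and 1 higher in si-Eos relative to Treg. In si-RL 4 of 9 were lower. Another 2 were lower there as a bound, where 21.8% of probes with 1 side above background were. All 11 were well above background on every array but si-RL, where 9 were. The summed level was 7.51 in si-Eos, 5.28 in si-RL, 12.2 in Treg and 5.50 in naive T cells. Within it Cd74, the invariant chain, was -2.34 in si-Eos and -4.88 in si-RL, while H2-Ab1 was 0.63 and 0.41 and H2-Oa was -2.01 and -0.61. The list for plasmacytoid dendritic cells, which share part of the B cell programme, had 5 of 11 measured genes at least 2-fold lower and 2 higher in si-Eos, and 6 of 10 lower and 0 higher in si-RL, with medians of -0.24 and -1.81. Its defining gene Siglech was not well above background on any array. Of 13 found, 11 were well above background in si-Eos, 10 in si-RL, 11 in Treg and 10 in naive T cells. The summed level was 56.6 in si-Eos, 26.4 in si-RL, 41.5 in Treg and 32.5 in naive T cells, and Tlr9 and Bst2 were -0.16 and -0.24 in si-Eos and -0.07 and -0.27 in si-RL. Of the myeloid genes 0 of 6 measured were at least 2-fold lower and 1 was higher in each hairpin library, with medians of 0.39 in si-Eos and 0.35 in si-RL. As a bound, 2 of 14 were lower in each, Lyz2 among them, and 1 was higher in si-Eos. Of the 14, between 6 and 9 were well above background on an array, and their summed level lay between 1.83 and 2.08. Surrogate light chain and recombination genes had 0 of 4 measured past 2-fold in either hairpin library over Treg, with 4 or 5 of 8 above background on an array and a summed level of 2.99 to 4.02. Receptors for immunoglobulin had 1 of 9 lower and 0 higher in si-Eos, near the 10.1% of all probes, with another 1 lower as a bound. In si-RL 2 of 7 were lower and 1 higher, with another 2 lower and 1 higher as a bound. Trim21, a cytosolic antibody receptor, was -1.27 and -1.45. Of 13 found, 8 to 11 were above background on an array, and the summed level was 2.62 in si-Eos, 2.37 in si-RL, 3.50 in Treg and 3.71 in naive T cells.

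T cell genes were at high signal on all arrays, as the labels say. All 16 were well above background everywhere, and the summed level was 557 in si-Eos, 313 in si-RL, 540 in Treg and 624 in naive T cells. Cd3d, a chain of the T cell receptor complex, had 25970 in si-Eos and 20821 in si-RL, against 26273 in Treg and 28762 in naive T cells. Of the 16 genes, 2 were at least 2-fold lower in si-Eos than in Treg, near the 10.1% of all measured probes. In si-RL 4 were, where 7.69% of all measured probes were. Cd6, a T cell surface receptor, was 0.27 in si-Eos and -1.29 in si-RL relative to Treg. Of 17 Treg signature genes found, 3 were at least 2-fold lower and 4 higher in si-Eos, where 10.1% and 8.5% of all measured probes were. In si-RL 12 of 15 measured were lower and 0 higher, beside 7.69% and 8.56%. Another 2 were lower there as a bound, where 21.8% of probes with 1 side above background were.

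**Figure D4:**
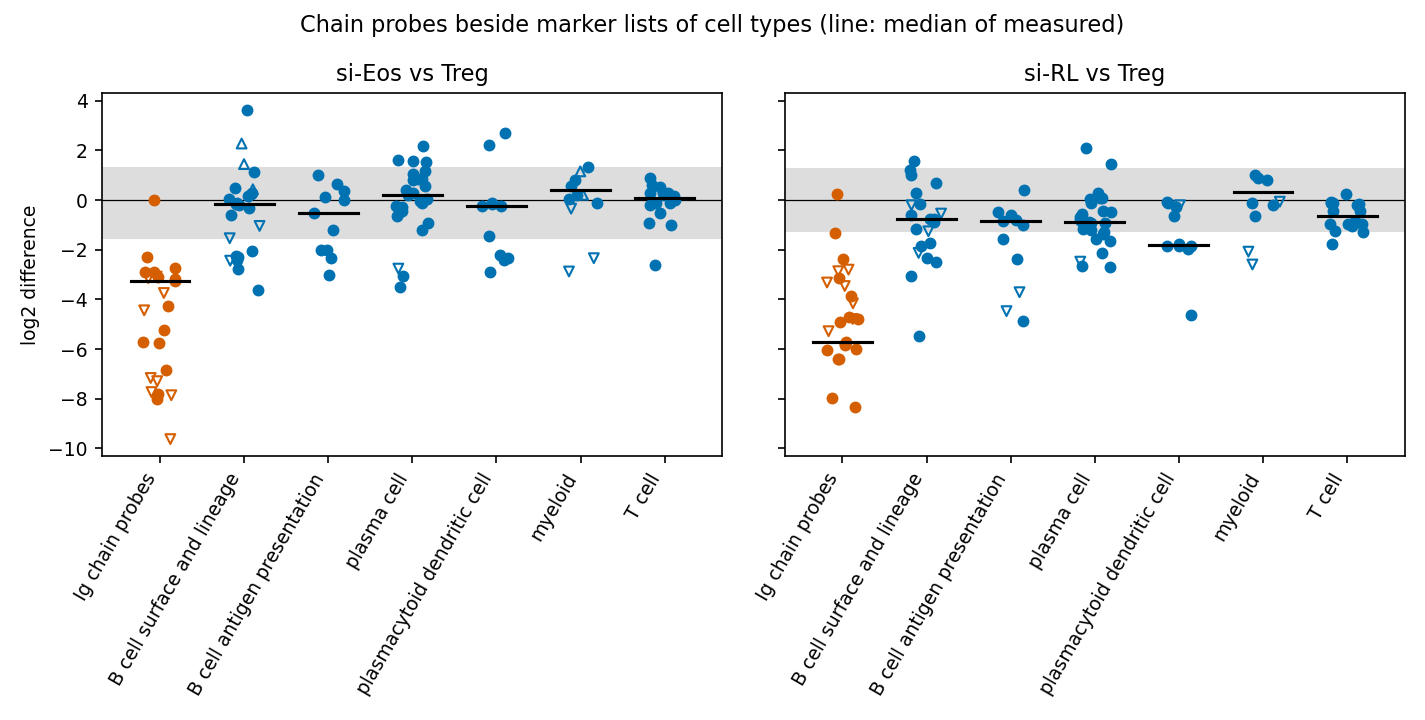
Log2 differences over Treg of the 25 probes (first column, Ighmbp2 included) and of 6 marker lists, for si-Eos (left) and si-RL (right). Lines are medians of measured probes, open triangles are bounds and the grey band spans the 5th to 95th percentile of all measured probes. The chain probes have medians of -3.26 and -5.73, and the list medians lie between -1.81 and 0.39.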

How the data were processed

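RNA of 4 samples was labelled with Cy3 and hybridised to 4 one-colour arrays. Per the file headers, Agilent Feature Extraction 9.5.3.1 made the deposited linear spot intensity, and probe positions are of mouse build mm8. Background had been subtracted from the deposited signal, with no scaling between arrays, per those headers. The value table deposited by the authors held the same linear intensity: per array the median of its ratio to the scanner value was 1.00, with 100% of spots equal within 0.5%. The medians of its columns were 38.5 for si-Eos, 31.5 for si-RL, 50.5 for Treg and 33.2 for naive T. It was not centred, and as it holds signals and not ratios it has no direction.

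From these, log2 of the deposited processed intensity minus each array's 75th percentile was computed with Python 3.11.15 and pandas 2.3.3. Spots flagged as outliers were left out (71 to 94 per array, 0 of chain probes), and spots of a probe were averaged. Called means at least 2-fold. A bound sets the bright array's level against the dim array's detection floor (its lowest well-detected probe) or the dim probe itself, whichever is higher. Alternatives were other scalings, normexp (limma 3.58.1), no filter on dim probes, flagged spots kept, other sets of chain probes, the value table and a 3-fold threshold. The scaling and calling steps were tested on simulated data that held scanner error only and no spread between samples, so the test bears on the computation alone. The number of arrays limits the precision.

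Names came from RefSeq GRCm38.p6: of the 25 probes 3 by accession, 3 by symbol, 11 by a single synonym and 8 kept the file's name. List genes are represented by their brightest probe. Named with values are the J chain, each detected constant-region probe, the 6 highest and 3 lowest detected variable-region probes, the 3 most and 3 least lowered probes, probes that went against the rest, and up to 4 highest genes of each of the 9 lists. Ms4a1, Cd79a, Cd79b, Blnk, Cd24a, Pax5, Ebf1, Mzb1, Derl3, Tnfrsf17, Prdm1, Xbp1, Irf4, Siglech and Lyz2 lie beyond that rule and were chosen after their values were seen. The members and lists were chosen with earlier results of these data known. One gene counted in the B cell list is not reported here by name. Probe and protein sequences were not used here. Slide and scan were shared by all 4 arrays.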

Additional observations from a re-analysis of the deposited data

Results flagged for a closer look

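Irf8, a factor of B cells and plasmacytoid dendritic cells that activated T cells can also express, is a gene of the plasmacytoid dendritic cell list whose signal moved in opposite directions by at least 2-fold from Treg in the hairpin libraries. It had a signal of 9095 in the library labelled si-Eos, 296 in that labelled si-RL, against 1721 in Treg and 296 in naive T cells. The log2 difference from Treg was 2.69 in si-Eos and -1.96 in si-RL, which lie 4.66 apart, and this difference was not tested because each library is 1 array.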

How the results depend on the processing

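No paired analysis was possible because each group is 1 array, and no replicate could be left out. Of 160 summary values under the other settings 124 kept within their limits (1.5 times for a count, the scanner error for a median) and 36 moved; none changed sign from a called value. The settings with flagged spots kept and with the value table could hardly move these values. No flagged spot was of a chain probe, and the value table held the same intensity. The lower medians over Treg kept their sign throughout. The scalings shifted all probes too: the median of all probes was -0.28 for si-Eos and -0.32 for si-RL over Treg with spike-in scaling, -0.46 and -0.37 with normexp, and for Treg over naive T 0.23 with spike-in scaling, 0.28 with normexp and -0.23 with the array median. The share of higher among all 2-fold probes was 45.7% for si-Eos over Treg and 52.7% for si-RL over Treg, but 22.9% and 21.2% with spike-in scaling and 16.6% and 15.9% with normexp. For the chain probes, spike-in scaling gave medians of -3.58 (si-Eos over Treg), -6.09 (si-RL over Treg), -4.56 (cultured over fresh) and 0.26 (Treg over naive T), where the array median gave -0.21. Normexp gave medians of -2.41, -3.58 and -2.76 for si-Eos over Treg, si-RL over Treg and cultured over fresh. It left 0 of 12 chain probes at least 2-fold higher for si-Eos over si-RL and 0 of 24 for Treg over naive T. Of all probes 1486 of 25441 and 2707 of 26118 were. The normexp offset of 50 lifts dim probes, so differences of dim probes shrink by construction. The heavy variable median for si-Eos over si-RL was 0.32 in place of 1.57. Without the filter on dim probes the medians were -5.20, -4.79 and -5.03 for si-Eos over Treg, si-RL over Treg and cultured over fresh. Then 24 of 25 were lower for si-Eos over Treg (4286 of 41173 over all probes). For cultured over fresh 23 of 25 were lower (2831 of 41169). For si-Eos over si-RL 4 of 25 were higher (5027 of 41174) and 8 lower (4586 of 41174). Without Ighmbp2 the medians were -3.75 for si-Eos over Treg and -5.03 for cultured over fresh. With all probes described as a chain, 54 of 61 measured were lower for si-Eos over Treg (10.1% of all probes). For si-RL over Treg 43 of 49 were (median -4.21, 7.69% of all probes), and for cultured over fresh 35 of 41 (median -3.26, 6.5%). For si-Eos over si-RL 7 of 41 were higher (9.81%) and 4 lower (11.2%), with a median of 0.19. With 1 probe per gene name 7 of 8 were lower for si-Eos over Treg (median -3.00) and 7 of 8 for si-RL over Treg (median -3.50). For cultured over fresh 6 of 7 were lower (median -2.85), and for si-Eos over si-RL 1 of 7 was higher. The shares over all probes are those just given. At 3-fold 1 of 12 was higher for si-Eos over si-RL (950 of 25441 over all probes). For Treg over naive T 0 of 24 were (726 of 26118). J chain lay between -8.35 and -5.11 for si-Eos over Treg and between -8.34 and -4.88 for si-RL over Treg. For Treg over naive T it lay between -0.58 (normexp) and 0.12 (spike-in scaling). Many chain probes lay near background in the hairpin libraries, which limits the size of their differences.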
